A study of Mus musculus with 9 samples.

Results

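The genes described here encode 10 secreted or membrane-bound ligands through which CD8 T cells act on other cells: the chemokines Ccl3, Ccl4, Ccl5 and Xcl1, the cytokines Ifng and Tnf, the lymphotoxins Lta and Ltb, and the death ligands Fasl and Tnfsf10. They were chosen by gene symbol from 23936 genes of the deposited table, and all 10 were found. RNA sequencing covered 9 libraries of OT-I cells, mouse CD8 T cells with a transgenic receptor for an ovalbumin peptide. The groups are naive cells from the spleen (3 libraries), spleen-primed cells from the spleen (3, titled "ivspleen") and MLN-primed cells (3, titled "oralmln") from tissue labelled MLN, which the labels do not spell out. The labels give no age, sorting gate, antigen dose or time after priming, and all groups share the OT-I receptor. The labels do not say whether the 3 libraries of a group are 3 animals. The p-values therefore weigh library against library, a spread that may be technical only. The organ of origin and the way of priming change together between the primed groups and cannot be told apart.

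CCL3, CCL4 and CCL5 attract T cells, monocytes and NK cells, and XCL1 attracts cross-presenting dendritic cells through XCR1. Interferon gamma and TNF act on nearly all cell types, lymphotoxin alpha and beta form a membrane complex that shapes lymphoid tissue, and Fas ligand and TRAIL (Tnfsf10) trigger death receptors. Resting T cells hold Ltb transcripts, effector CD8 T cells hold large amounts of Ccl5 transcripts, and transcripts of Ifng, Tnf, Xcl1, Ccl3 and Ccl4 rise within hours of receptor stimulation and decay fast.

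The members lie in 2 gene clusters and 4 single places of the mouse genome (GRCm38, the assembly also called mm10; GENCODE M21 gene ends, all protein-coding). Ccl5 (chr11:83525778-83530518, minus strand), Ccl3 (chr11:83647844-83649355, minus) and Ccl4 (chr11:83662584-83664683, plus) belong to the CC chemokine cluster. Ltb (chr17:35194439-35196320, plus), Tnf (chr17:35199381-35202007, minus) and Lta (chr17:35203165-35205351, minus) stand side by side in the major histocompatibility region. Xcl1 (chr1:164931644-164935527, minus) and Fasl (chr1:161780689-161788495, minus) lie apart on chromosome 1, Ifng (chr10:118441046-118445892, plus) on chromosome 10 and Tnfsf10 (chr3:27317028-27342427, plus) on chromosome 3. The annotation places Gm20743 on the strand opposite Xcl1 and Gm49751 on the strand of Ifng, and the RefSeq span of Ccl4 overlaps part of Ccl3. The library kit keeps strand, but its use in quantification is not given in the sources used here, so fragments of overlapping genes may be shared.

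The 250 bases before the RefSeq start (GRCm38.p6) are shown for 2 pairs, whose members differed in some of the comparisons they passed. Ccl3 and Xcl1 both passed, as higher, in MLN-primed against naive cells. The pairs are the chemokine genes Ccl3 (chr11:83649379-83649628, minus strand) and Xcl1 (chr1:164935523-164935772, minus), and the neighbours Tnf (chr17:35202008-35202257, minus) and Ltb (chr17:35194257-35194506, plus). Each is written 5′ to 3′ on the strand of its gene, with capitals at motif matches.
Ccl3: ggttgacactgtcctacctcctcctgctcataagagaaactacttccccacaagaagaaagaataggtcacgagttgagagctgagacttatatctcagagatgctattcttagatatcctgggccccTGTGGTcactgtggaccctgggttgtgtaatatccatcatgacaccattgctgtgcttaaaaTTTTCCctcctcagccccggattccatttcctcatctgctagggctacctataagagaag
Xcl1: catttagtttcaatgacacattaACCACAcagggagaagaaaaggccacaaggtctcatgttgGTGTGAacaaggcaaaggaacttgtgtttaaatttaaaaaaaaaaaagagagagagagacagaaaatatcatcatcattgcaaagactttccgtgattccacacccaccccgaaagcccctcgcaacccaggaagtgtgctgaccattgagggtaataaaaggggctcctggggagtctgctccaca
Tnf: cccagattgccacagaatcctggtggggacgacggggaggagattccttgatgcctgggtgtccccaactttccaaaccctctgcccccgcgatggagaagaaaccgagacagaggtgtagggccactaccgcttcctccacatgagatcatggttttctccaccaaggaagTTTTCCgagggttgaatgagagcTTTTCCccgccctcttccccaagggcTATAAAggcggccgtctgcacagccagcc
Ltb: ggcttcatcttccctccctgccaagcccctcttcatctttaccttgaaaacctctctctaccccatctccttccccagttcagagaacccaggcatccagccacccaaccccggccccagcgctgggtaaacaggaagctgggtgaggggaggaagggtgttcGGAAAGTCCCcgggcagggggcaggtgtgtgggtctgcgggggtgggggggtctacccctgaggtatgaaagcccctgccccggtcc
Both strands were searched for AP-1 (TGANTCA), CRE (TGACGTCA), a T-box site (GTGTGA), RUNX (TGTGGT), the core element TATA box (TATAAA), the site of NFAT (GGAAAA) and the NF-kB consensus. No 2 matches overlapped in the windows shown. Ccl3 held RUNX and NFAT, Xcl1 held RUNX and the T-box site, Tnf held NFAT at 2 places and a TATA box, and Ltb held the NF-kB consensus. Of 32851 RefSeq windows of this length, RUNX was in 14.0%, NFAT in 20.4%, the T-box site in 12.3%, the TATA box in 12.4% and the NF-kB consensus in 7.25%. Of the 8 members with an entry, RUNX was in 2, NFAT in 3 (also Fasl), the letters TATAAA in 3 (also Ifng and Lta), and AP-1 and CRE in 0. TATAAA began at -30 from the start in Ifng and at -29 in Tnf, but at -167 in Lta, far from the start. An IRF element, GAAA at 2 places with any 2 bases between them, was also searched and was in 0 of the 8 and in 2.98% of all windows. AP-1 was in 6.75% and CRE in 1.55% of them. Ccl4 and Ccl5 had no entry. A match describes the letters and is no evidence of binding.

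The estimated depth was about 20580000 to 33820000 fragments per library. CD8 T cell markers (Cd8a, Cd8b1, Cd3e and 5 others) summed to 3763 to 4126 FPKM in naive libraries, 2979 to 3061 in the spleen-primed ones and 2043 to 2130 in the MLN-primed ones. Markers of other cells were uneven between the groups. Of 5 NK cell markers, 4 stayed under 1 FPKM in every library, and the 5 summed to 0.761, 3.84 and 4.13 FPKM in naive 1, 2 and 3, 1.9 to 3.96 in spleen-primed and 0.453 to 0.922 in MLN-primed libraries, mostly Klrb1c. Myeloid markers summed to 9.67, 34.6 and 52.7 FPKM in naive 1, 2 and 3, 17.0 to 18.7 in spleen-primed and 7.73 to 8.90 in MLN-primed libraries. In primed libraries that was mostly Cd68 (7.21 to 17.4, against 0.669 to 1.54 in naive ones). S100a8, at 1.82, 12.1 and 19.6 in naive 1, 2 and 3, was at most 0.154 in primed libraries. Mpeg1, at 3.25, 4.53 and 6.02 in naive libraries, was at most 0.130 in them. B cell markers summed to 11.1 to 14.9, 6.48 to 8.27 and 11.2 to 14.5 FPKM, nearly all of it Cd79b. The 10 dendritic cell markers summed to 94.8 to 167 FPKM in naive libraries, 96.0 to 106 in the spleen-primed ones and 38.5 to 50.2 in the MLN-primed ones. In naive libraries that was mostly Cd74 (38.1 to 66.8) and class II genes such as H2-Aa (23.6 to 39.7). In the primed ones it was mostly Itgax (34.1 to 103). The defining genes Flt3, Zbtb46, Clec9a and Siglech stayed under 1 in all, but each was higher in every naive library than in any primed one. Flt3 was at 0.35 to 0.74 in naive and at most 0.01 in primed libraries, and Clec9a at 0.36 to 0.56 and at most 0.013. Stromal and endothelial markers summed to 37.5 to 44.1 FPKM in naive and 2.56 to 4.58 in primed libraries, nearly all of it Pecam1. Red cell and platelet markers ranged from 0.357 to 60.1 FPKM, with MLN-primed 2 at 60.1 and its group mates at 0.357 and 0.394. The part of such cells in the results was not tested, and in bulk RNA fewer cells of a type and less RNA per cell cannot be told apart.

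In naive cells Ltb was the most abundant member, and in both primed groups Ccl5 was. FPKM are per transcript length, so levels can be ordered between genes. In naive cells Ltb (567 ± 20.5 FPKM; mean ± SD, n = 3, as below) and Ccl5 (151 ± 94.3) stood above the other 8, whose values lay between 0 and 6.34 and whose neighbours in the order all overlapped. In spleen-primed cells the order was Ccl5 (2118 ± 138), Ltb (144 ± 6.07), Ifng (15.6 ± 3.29), Fasl (12.5 ± 0.638), Ccl4 (8.11 ± 1.71), Tnfsf10 (7.28 ± 0.201), Ccl3 (3.15 ± 1.0), Tnf (2.19 ± 0.835), Xcl1 (2.0 ± 0.813) and Lta (1.38 ± 0.219). There the values of Ccl4 and Tnfsf10, and those of each neighbouring pair from Ccl3 down, overlapped. In MLN-primed cells Ccl5 (408 ± 121) and Ltb (81.8 ± 4.38) again led, and Xcl1 (8.68 ± 2.76) came next, overlapping Ifng (6.14 ± 1.44). Fasl (5.94 ± 0.346) and Tnfsf10 (5.64 ± 0.0833) followed, then Ccl4 (2.72 ± 1.07), Tnf (2.71 ± 0.90), Lta (2.36 ± 0.124) and Ccl3 (2.27 ± 0.78), of which each neighbouring pair overlapped.

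**Figure D1:**
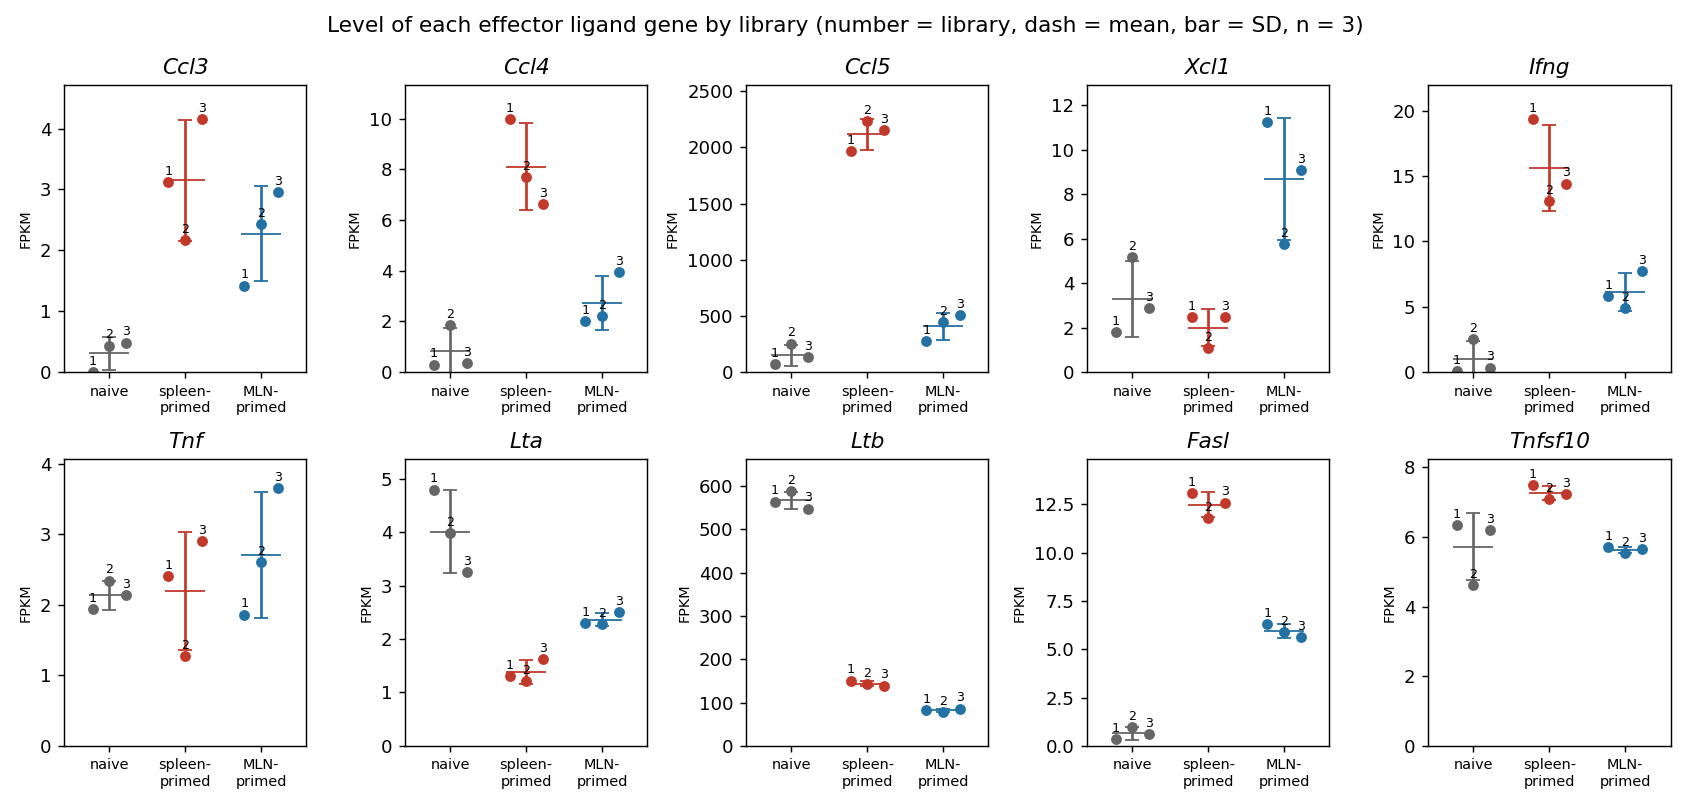
FPKM (vertical axis, from 0) of the 10 genes by group of libraries; each point is a library with its number, the dash is the mean and the bar the SD of 3. Ccl5 lies between 1966 and 2236 in spleen-primed libraries and at most at 505 in the others, and Ltb lies at 548 to 589 in naive and at most at 151 in primed libraries.

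The response to priming was asked of both primed groups against naive cells. These comparisons share the naive libraries, so their values are given side by side and not as separate support. In each of them 6 of the 10 genes were higher and 2 lower, and 8 of 10 had no overlap between the groups. Among all 10185 genes tested, 75.8% passed in spleen-primed against naive cells, 43.1% higher and 32.7% lower, and 78.2% did not overlap. For MLN-primed against naive cells 78.7% passed, 45.5% higher and 33.2% lower, and 80.4% did not overlap, so most genes changed and the members' count lies near that background. The median log2 change of the members was 0.99 after priming in the spleen and 1.15 after priming in the MLN, beside 0.10 and 0.15 for all genes.

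Ccl5 held nearly all chemokine transcripts of the members. It was at 68.1, 253 and 130.04 FPKM in naive libraries, 1966, 2236 and 2152 in the spleen-primed ones and 273, 447 and 505 in the MLN-primed ones, in the order of libraries 1, 2 and 3 as below. All primed libraries lay above all naive ones, MLN-primed 1 just above naive 2. Ccl5 rose in spleen-primed cells (log2 change of FPKM + 1, 4.0 ± 0.40, model SE; limma, adjusted p = 7.53e-06) and in MLN-primed cells (1.58 ± 0.40, adjusted p = 0.00407). The second change was 1.02 under quantile normalisation. Summed over the 4 chemokine genes, the level was 155 ± 97.1 FPKM in naive cells, 2132 ± 136 after priming in the spleen and 422 ± 120 after priming in the MLN, and Ccl5 made up 94.9% to 99.5% of it in every library.

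Ccl3 and Ccl4, close relatives of Ccl5 that attract inflammatory cells, rose from near 0. Ccl3 was listed at 0 in naive 1 and was at 0.433 and 0.485 FPKM in naive 2 and 3, at 3.13, 2.16 and 4.16 in spleen-primed and at 1.42, 2.43 and 2.96 in MLN-primed libraries. The naive values rest on about 0, 6 and 6 fragments. Its log2 change was 1.66 ± 0.23 in spleen-primed (limma, adjusted p = 9.62e-05) and 1.32 ± 0.23 in MLN-primed cells (adjusted p = 4.41e-04). Ccl4 was at 0.289, 1.86 and 0.347 FPKM in naive libraries, 9.99, 7.70 and 6.64 in the spleen-primed ones and 2.01, 2.20 and 3.95 in the MLN-primed ones. Naive 2 lay close below MLN-primed 1 and 2, while the spleen-primed values stood clear of the rest. Its log2 change was 2.40 ± 0.31 in spleen-primed (limma, adjusted p = 4.90e-05) and 1.09 ± 0.31 in MLN-primed cells (adjusted p = 0.00808).

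Xcl1, the ligand of XCR1, rose in MLN-primed cells and did not pass in spleen-primed cells. It was at 1.81, 5.18 and 2.89 FPKM in naive libraries, 2.48, 1.06 and 2.46 in the spleen-primed ones and 11.2, 5.75 and 9.07 in the MLN-primed ones. The MLN-primed values lay above all others, the lowest of them little above naive 2. The log2 change against naive was 1.21 ± 0.32 in MLN-primed (limma, adjusted p = 0.00575) and -0.48 ± 0.32 in spleen-primed cells (adjusted p = 0.194).

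Ifng, the cytokine that activates macrophages and antigen presentation, was at 0.0466, 2.55 and 0.337 FPKM in naive libraries, 19.3, 13.1 and 14.4 in the spleen-primed ones and 5.83, 4.88 and 7.71 in the MLN-primed ones. The 3 groups did not overlap. Naive 2 stood apart, with about 66 fragments of Ifng beside about 1 and 8 in naive 1 and 3. The log2 change was 3.27 ± 0.38 in spleen-primed (limma, adjusted p = 2.64e-05) and 2.05 ± 0.38 in MLN-primed cells (adjusted p = 6.56e-04). Tnf, its partner in inflammation, was at 1.93 to 2.34 FPKM in naive libraries, 1.27 to 2.90 in the spleen-primed ones and 1.86 to 3.65 in the MLN-primed ones. These ranges overlapped, and neither log2 change passed (-0.01 ± 0.21 and 0.21 ± 0.21; limma, adjusted p = 0.971 and 0.376).

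The lymphotoxin genes were the members that fell. Ltb, whose product anchors lymphotoxin in the membrane, was at 564, 589 and 548 FPKM in naive libraries, 151, 142 and 139 in the spleen-primed ones and 81.9, 77.3 and 86.1 in the MLN-primed ones. The groups were far apart and each was tight. Ltb fell by 1.97 ± 0.06 on the log2 scale in spleen-primed cells (limma, adjusted p = 2.32e-09) and by 2.78 ± 0.06 in MLN-primed cells (adjusted p = 2.05e-10). Lta, the subunit that is also secreted alone, was at 4.79, 3.98 and 3.25 FPKM in naive libraries, 1.30, 1.21 and 1.63 in the spleen-primed ones and 2.30, 2.28 and 2.50 in the MLN-primed ones. Again the groups did not overlap, with the MLN-primed values in the middle. It fell by 1.07 ± 0.12 (limma, adjusted p = 2.03e-05) and by 0.56 ± 0.12 (adjusted p = 0.00156). The FPKM ratio of Ltb to Lta was 118 to 169 in naive libraries, 85.3 to 117 in the spleen-primed ones and 33.9 to 35.6 in the MLN-primed ones.

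The death ligands differed in how far they moved. Fasl, a ligand that kills Fas-bearing targets, was at 0.332, 0.957 and 0.624 FPKM in naive libraries, 13.1, 11.8 and 12.6 in the spleen-primed ones and 6.32, 5.87 and 5.63 in the MLN-primed ones. The 3 groups did not overlap, and the primed ones were tight. Fasl rose by 3.06 ± 0.13 on the log2 scale (limma, adjusted p = 1.58e-08) and by 2.10 ± 0.13 (adjusted p = 1.92e-07). Tnfsf10 was at 6.34, 4.61 and 6.2 FPKM in naive libraries, 7.50, 7.10 and 7.24 in the spleen-primed ones and 5.71, 5.55 and 5.65 in the MLN-primed ones. The spleen-primed values lay just above the rest. Its log2 change was 0.31 ± 0.11 in spleen-primed (limma, adjusted p = 0.0229) and -0.01 ± 0.11 in MLN-primed cells (adjusted p = 0.953). The first call ended without naive 2 (0.19), without spleen-primed 1 (0.29) and under median-of-ratios scaling (0.24).

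**Figure D2:**
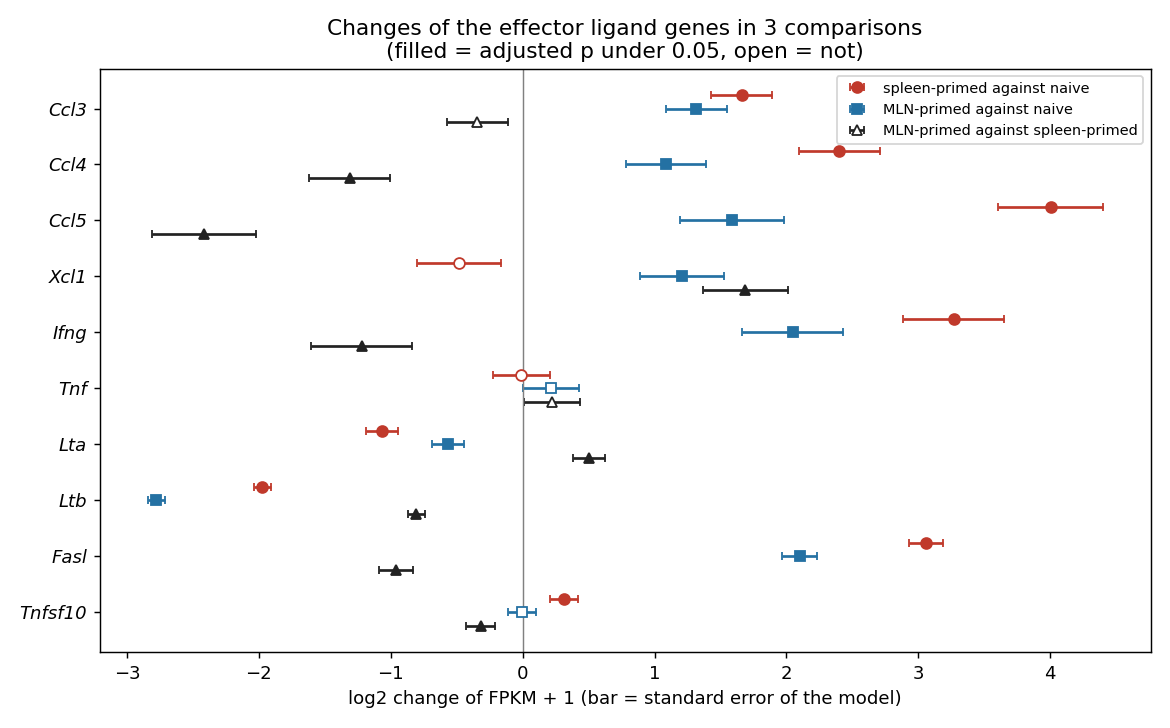
Log2 change of FPKM + 1 (horizontal axis) with the model's standard error for each gene in 3 comparisons; filled symbols passed an adjusted p of 0.05 and open ones did not. On this scale Ccl5 is at 4.0 and Fasl at 3.06 in spleen-primed cells, Ltb is at -2.78 in MLN-primed cells, and Tnf is open in all 3.

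A pseudocount of 1 weighs on the genes that start near 0. With 0.1, the changes of Ccl3 were 3.32 and 2.85, those of Ccl4 in MLN-primed cells 1.95 and those of Ifng in MLN-primed cells 3.47, all still called. Against naive cells, quantile normalisation moved the median change of all genes from 0.10 to -0.07 (spleen-primed) and from 0.15 to -0.04 (MLN-primed), and the share of higher genes among those called from 56.8% to 46.6% and from 57.8% to 48.1%. The directions of the members that passed were the same under it and under median-of-ratios scaling.

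Naive libraries were not alike. Naive 2 held the highest naive value of 7 of the 10 genes (Ccl4, Ccl5, Xcl1, Ifng, Tnf, Ltb and Fasl), and naive 1 the lowest of 7 (Ccl3, Ccl4, Ccl5, Xcl1, Ifng, Tnf and Fasl). Stimulation-induced transcription factor genes varied with them, with Fos at 3.22, 187 and 50.3 FPKM and Jun at 3.13, 99.8 and 24.8 in naive 1, 2 and 3. In spleen-primed and MLN-primed libraries Fos was at most 1.73 FPKM. Without naive 2, the log2 change of Ifng was 3.79 for spleen-primed and 2.58 for MLN-primed cells, and that of Ccl5 4.48 and 2.06. What set naive 2 apart was not tested.

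**Figure D3:**
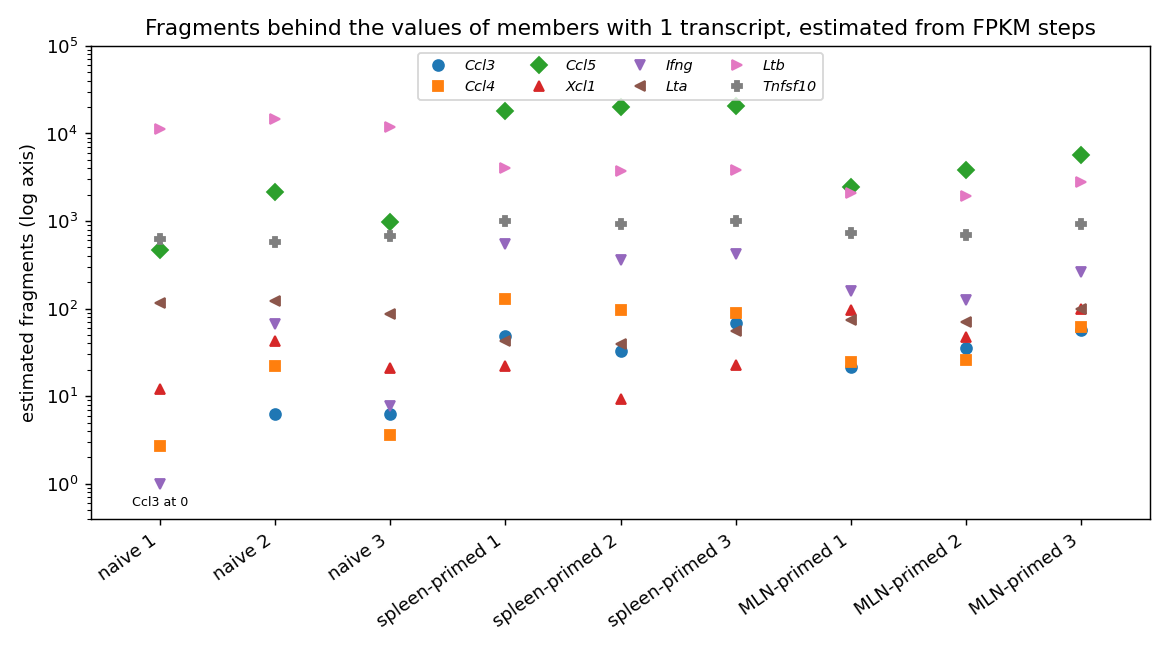
Estimated fragments (vertical log axis) behind the values of the 8 members with 1 annotated transcript in each of the 9 libraries. Ccl3, Ccl4 and Ifng rest on under 10 fragments in naive 1 and 3 (Ccl3 also in naive 2), Xcl1 on 9 in spleen-primed 2, and Ccl5 and Ltb on 465 or more in every library.

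MLN-primed cells were then compared with spleen-primed cells. Organ of origin and way of priming change together here, so a difference cannot be assigned to either. Of the 10 genes, 6 were lower in MLN-primed cells (Ccl5, Ccl4, Ifng, Fasl, Ltb and Tnfsf10) and 2 higher (Xcl1 and Lta), and Ccl3 and Tnf did not pass. Among all genes tested 30.4% passed, 13.1% lower and 17.3% higher. Values did not overlap for 8 of 10 genes, beside 46.1% of all genes. The members' median log2 difference was -0.58, beside 0.03 for all genes. Higher genes made up 56.9% of all those called, and 46.2% under median-of-ratios scaling, where all 8 calls of members held.

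Ccl5 had the largest difference of the members, 5.19 times as much in spleen-primed as in MLN-primed cells by mean FPKM (log2 difference -2.42 ± 0.40; limma, adjusted p = 0.00166). Ccl4 was 2.98 times as high in spleen-primed cells (-1.31 ± 0.31, adjusted p = 0.00983), a call that ended with a pseudocount of 0.1 (-1.59). Ccl3, its neighbour 13229 bases away, overlapped between the groups (-0.34 ± 0.23; limma, adjusted p = 0.304) and changed sign without both spleen-primed 3 and MLN-primed 1 (0.03). Summed NK cell markers were also higher in spleen-primed libraries, as given above, mostly through Klrb1c at 1.53 to 3.46 against 0.374 to 0.619 FPKM. Klra8 did not overlap either, at 0.0686 to 0.0780 against at most 0.0311 FPKM. Ncr1, Klra4 and Klri2 overlapped between the primed groups. Ncr1 was at most 0.0554 FPKM in spleen-primed and at most 0.0301 in MLN-primed libraries. What part NK cells had in the difference was not tested.

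Xcl1 went the other way from Ccl4 and Ccl5. It was 4.34 times as high in MLN-primed cells (1.69 ± 0.32; limma, adjusted p = 0.00353), and about 97, 48 and 99 fragments stood against about 22, 9 and 23. Ccl5 exceeded Xcl1 by 792 to 2108 times in spleen-primed, 24.3 to 77.7 times in MLN-primed and 37.6 to 48.9 times in naive libraries. Xcl1 made up 1.26% to 3.90% of the chemokine sum in MLN-primed and 0.0472% to 0.125% in spleen-primed libraries. MLN-primed 1 had the most Xcl1 and the least Ccl5, Ccl4, Ccl3 and Tnf of its group; without it the difference in Xcl1 was 1.5 and that in Ccl5 -2.15, both called. That library and spleen-primed 3 had the outermost trends with transcript length, -0.08 and 0.07 log2 per doubling. Xcr1, the receptor gene for XCL1, was at 0.345 to 0.728 FPKM in all libraries.

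Fasl was 2.10 times as high in spleen-primed cells (-0.96 ± 0.13; limma, adjusted p = 6.49e-04) and Ltb 1.76 times (-0.81 ± 0.06, adjusted p = 4.17e-05). Both calls held under all 19 alternatives run for each. Lta was 1.71 times as high in MLN-primed cells (0.50 ± 0.12; limma, adjusted p = 0.0114), so these partner genes of 1 complex went opposite ways. That call ended without spleen-primed 2 (0.45). Tnf, which lies between them on chromosome 17, did not pass (0.22 ± 0.21; limma, adjusted p = 0.478). It was -0.0037 without spleen-primed 2 and passed without both spleen-primed 3 and MLN-primed 1 (0.56). Their neighbours Lst1, at 4.04 against 4.05 FPKM, and Nfkbil1, at 10.6 against 9.84 in spleen-primed and MLN-primed cells, did not pass either.

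Ifng was 2.54 times as high in spleen-primed cells, and its call is fragile (-1.22 ± 0.38; limma, adjusted p = 0.0366). The call ended without any 1 of the 6 primed libraries (-1.37 to -1.06), with no filter, with robust variances and with a pseudocount of 0.1 (-1.34). Over its alternatives the adjusted p was 0.00194 to 0.254 in limma, and the lowest came without naive 2. Tnfsf10 was 1.29 times as high in spleen-primed cells (-0.32 ± 0.11; limma, adjusted p = 0.0483), and that call ended as well without any 1 primed library (-0.33 to -0.30), without naive 3 (-0.32) and under 4 other settings including quantile normalisation (-0.33).

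**Figure D4:**
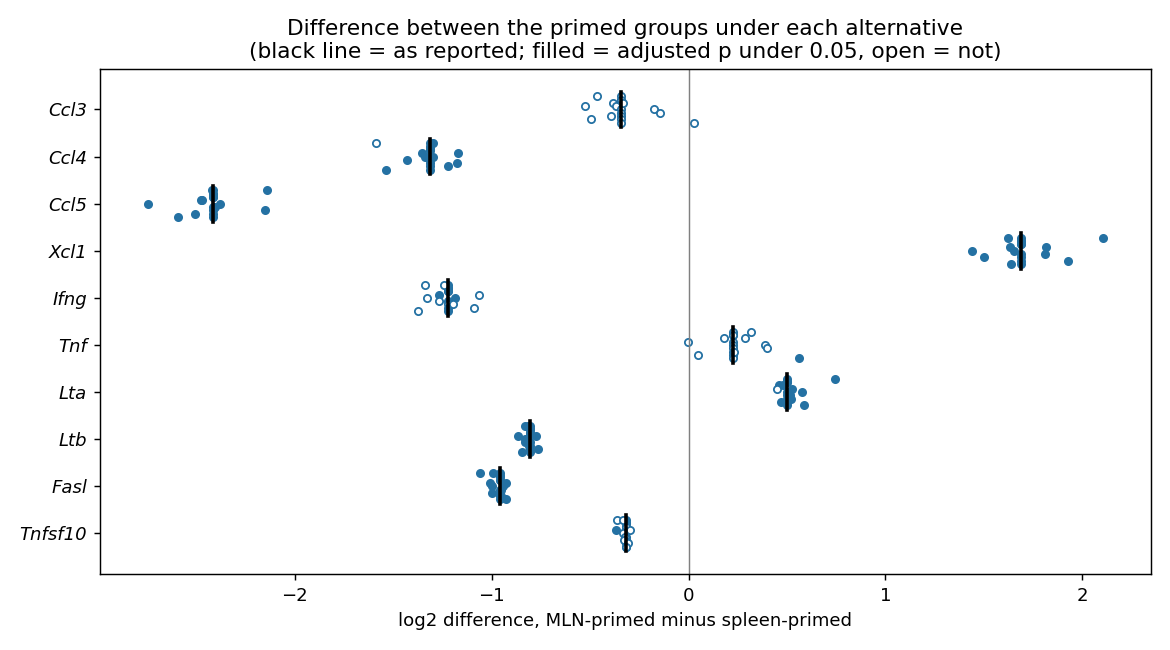
Log2 difference between MLN-primed and spleen-primed cells (horizontal axis) under each alternative setting (points, filled where the adjusted p was under 0.05) and as reported (black lines). Points of Ccl5, Xcl1, Ltb and Fasl are all filled and on 1 side of 0, while most points of Ifng and Tnfsf10 are open.

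Of 12 receptor genes for these ligands 8 were tested. In spleen-primed cells 3 were higher and 3 lower than in naive cells, beside 75.8% of all genes that passed, and in MLN-primed cells 2 were higher and 5 lower, beside 78.7%. Of the 3 higher, Ifngr1 (0.20) was lower under quantile normalisation (-0.38), and its call ended under median-of-ratios scaling (0.12) and without naive 1 (0.16), naive 3 (0.18), spleen-primed 1 (0.21) or spleen-primed 2 (0.18). Tnfrsf1b, the second TNF receptor, was at 10.9 FPKM in naive cells, 33.5 after priming in the spleen and 25.9 after priming in the MLN, higher in both. Ifngr2, the signalling chain of the interferon gamma receptor, was at 17.4 FPKM in naive cells and at 0.076 and 0.0525 in the primed groups (-4.09 ± 0.07 and -4.13 ± 0.07; limma, adjusted p = 5.88e-11 and 4.79e-11), and -6.64 and -6.86 with a pseudocount of 0.1. Tnfrsf14, which binds LIGHT and lymphotoxin alpha, was lower in both primed groups (-1.91 and -2.24). Ltbr, the receptor for the lymphotoxin complex, stayed at or under 0.161 FPKM in all libraries. Between the primed groups 5 of the 8 were lower in MLN-primed cells and 0 higher, beside 13.1% and 17.3% of all genes, among them Fas (-0.56) and Ifngr1 (-0.54), with a list median of -0.40.

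Of 20 further secreted factors of T cells 7 passed the filter of low values, and Il2, Il3, Areg and Ccl20 were listed at 0 in all primed libraries. Mif, a cytokine held in stores by many cells, was at 243 FPKM in naive cells, 471 after priming in the spleen and 792 after priming in the MLN, and rose in both (0.95 and 1.70; 0.30 and 1.12 under quantile normalisation). Il16 fell in both (-0.92 and -1.28). Between the primed groups Mif was higher (0.75) and Flt3l, a growth factor for dendritic cells, lower (-0.70) in MLN-primed cells. In all 1 of 7 was higher and 3 lower, beside 17.3% and 13.1% of all genes. The lower calls of Il16 (-0.36) and Ccl6 (-0.51, at 0.446 against 1.05 FPKM) ended in 4 of 19 and 5 of 14 alternatives. Of 10 further TNF family ligands 4 were tested. Tnfsf9, the ligand of 4-1BB, and Tnfsf14, which encodes LIGHT, rose in both primed groups (2.21 and 2.02 for spleen-primed, 2.43 and 0.63 for MLN-primed cells), while Tnfsf8 and Cd40lg fell. Of the 4, Tnfsf14 passed between the primed groups, at 3.36 FPKM in MLN-primed and 10.4 in spleen-primed cells (-1.39 ± 0.15; limma, adjusted p = 1.88e-04).

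Of 25 transcription factor genes known to act on cytokine genes 24 were tested. Tbx21, which drives Ifng in effector cells, was at 4.21 FPKM in naive cells, 158 after priming in the spleen and 109 after priming in the MLN (4.96 ± 0.12 and 4.42 ± 0.12; limma, adjusted p = 3.18e-10 and 6.14e-10). Bhlhe40 rose as well (3.97 and 3.50), and Jun (-3.46 and -3.26) and Fos (-4.29 and -4.12) fell from naive levels that differed widely between libraries. Without naive 2 the changes of Jun were -2.36 and -2.16. In all 8 rose and 9 fell in spleen-primed cells, beside 75.8% of all genes that passed. In MLN-primed cells 8 rose and 12 fell, beside 78.7%. Between the primed groups 2 were higher in MLN-primed cells, Irf4 (0.45) and Batf (0.36), and 9 lower, led by Eomes (-1.04), Fosl2 (-0.88) and Irf1 (-0.66). Among all genes tested 17.3% were higher and 13.1% lower there. The call of Irf4 ended without any 1 primed library except spleen-primed 3 (0.41 to 0.48), that of Fosl2 without spleen-primed 2 or 3 or MLN-primed 2 or 3 (-0.91 to -0.83), and that of Batf under median-of-ratios scaling (0.30). All 11 tested genes that set the stability of cytokine transcripts passed against naive cells, 3 up and 8 down in both primed groups, beside 75.8% and 78.7% of all genes. The rise of Khsrp in spleen-primed cells (0.65) lost its call in 9 of 19 alternatives, among them both scalings (0.57 and 0.37) and leaving out naive 1 (0.62), naive 2 (0.57), spleen-primed 2 (0.75) or spleen-primed 3 (0.42). Zfp36 and Zfp36l1, whose products speed the decay of AU-rich transcripts such as those of Tnf and Ifng, fell (-2.62 and -2.30 for spleen-primed, -2.92 and -2.75 for MLN-primed cells). Of these 11, Arid5a passed between the primed groups (-0.56) and the other 10 did not, beside 30.4% of all genes that passed. The difference of Arid5a was -0.35 with spleen-primed 3 and MLN-primed 1 both left out.

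Some genes ran closely with the members over the 9 libraries. These correlations are descriptions, since 3 groups of 3 set most of the pattern. Among 7741 genes, those most alike to Fasl included Insl6 (Pearson r = 0.998 on log2(FPKM + 1)) and the inhibitory receptor gene Klrc1 (0.998). Ifng was most like Gzmm (0.988), which encodes a granule protease, Adora2a (0.987) and Ctla2a (0.986), and Ccl4 too had Gzmm first (0.98). Ltb was most like Arhgap15 (0.999), Btg1 (0.998), a gene of quiescent cells, and Scp2 (0.998). Lta was most like Usp33 (0.98), Itgae (0.973), which encodes the CD103 chain, and Dph6 (0.973). Ccl5 was most like Isoc2b (0.986) and Capns1 (0.983), and Ccl3 like Meaf6 (0.98), Hcls1 (0.977) and Sytl2 (0.977). Xcl1, Tnf and Tnfsf10 had looser matches, the closest being Mnat1 (0.934), Snrnp48 (0.887) and Xiap (0.954).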

How the data were processed

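The deposited table gives 1 FPKM value per gene and library, made by the authors with TopHat and Cufflinks on mm10, per the submitters' processing notes. Their settings and whether strand was used are not given in the sources. FPKM divide fragments by effective transcript length and by library total. Of 24067 rows, 131 without a symbol (0.0479% of all FPKM) were left out. The members and lists were chosen with earlier results of these data known.

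Genes of at least 1 FPKM in at least 3 libraries (10185) entered 1 linear model of log2(FPKM + 1) over all 9 libraries in limma 3.58.1 (R 4.3.3) with a mean-variance trend, two-sided, with Benjamini-Hochberg adjustment over all genes tested and a threshold of 0.05. The pseudocount understates changes of low genes. The model was tested on simulated data with independent normal noise for each gene and changes planted only in genes above a set level. That test does not cover changes of the lowest genes or deviations that libraries share. All 10 members passed the filter.

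The depth of each library was estimated from the steps between low values. In 1-transcript genes over 1500 bases long (GENCODE M21), FPKM times effective length (fragment length 200 ± 80) would fall on whole multiples of what 1 fragment is worth. At the best depth, 53.4% to 56.4% of values under 6 fragments lay within 0.05 of a whole number, against 10.0% if spread evenly. These are estimates of the total Cufflinks divided by, and intervals were not made from them. Of each companion list, the genes named are at most 3 in each direction, by size of change among those that passed, and the genes most alike to a member have the highest Pearson correlation with it over 9 libraries among genes with a mean of at least 5 FPKM in a group, leaving out predicted, clone-named and small RNA models and receptor segments. Xcr1, Ltbr, Il2, Il3, Areg and Ccl20 lie outside this rule and were named after their values were seen. Some genes that the rule picks are not reported here. Alternatives were another pseudocount (0.1), no filter or one of 5 FPKM, median-of-ratios scaling, quantile normalisation, other variance models, fits of only the compared groups, a block for the replicate number, and libraries left out. Values were described with pandas 2.3.3 and numpy 2.4.6 in Python 3.11.15 and drawn with matplotlib 3.10.9.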

Additional observations from a re-analysis of the deposited data

Results flagged for a closer look

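The response to priming, each primed group against the same naive libraries, differed between the primed groups for 8 of the 10 genes by the test of the difference itself (limma), which is the comparison of the primed groups given above and in which 30.4% of all genes passed. The calls of Ifng and Tnfsf10 were lost in 10 and 11 of 19 alternatives. On the log2 scale, MLN-primed minus spleen-primed, the difference was -2.42 for Ccl5, -1.31 for Ccl4, -1.22 for Ifng, -0.96 for Fasl, -0.81 for Ltb, -0.32 for Tnfsf10, 0.50 for Lta and 1.69 for Xcl1. Of these 8, the values against naive cells lay on opposite sides of 0 for Xcl1 (1.21 in MLN-primed, -0.48 in spleen-primed cells) and Tnfsf10 (-0.01 and 0.31), and for each gene 1 of the 2 values did not pass.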

How the results depend on the processing

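Of 561 values of members under alternatives, 525 kept direction and side of the threshold, 26 lost the call, 1 gained it and 9 changed sign. The sign changes were in values that had not passed: Ccl3 between the primed groups (0.0286 without both spleen-primed 3 and MLN-primed 1), Tnf between them (-0.0037 without spleen-primed 2; with single libraries left out 0.396 at most, without MLN-primed 1; 0.559 and called without both spleen-primed 3 and MLN-primed 1), Tnf in spleen-primed against naive cells (0.0093 under quantile normalisation, 0.0374 without naive 2, 0.218 without spleen-primed 2; -0.173 at the lowest, without spleen-primed 3) and Tnfsf10 in MLN-primed against naive cells (0.008 under quantile normalisation, 0.0616 without naive 1, 0.0481 without naive 3, 0.0022 without MLN-primed 2; -0.132 at the lowest, without naive 2). Among other genes of the lists, quantile normalisation turned Ifngr1 (-0.384) and Tgfb1 (-0.0296) in spleen-primed against naive cells; the cause was not tested.

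Between the primed groups, 3 members were called lower with a pseudocount of 0.1, and 1 was called higher with a filter of 5 FPKM, which removed Lta from the test; with single libraries left out these counts were 4 to 6 lower and 1 to 2 higher. Against naive cells the filter of 5 FPKM left 1 member lower in each primed group, for the same reason. Over all genes, those called lower in MLN-primed against spleen-primed cells numbered 869 to 1376 with single libraries left out, lowest without spleen-primed 2. Those called higher numbered 1760 as reported and 1254 to 1790 with single libraries left out. Without both spleen-primed 3 and MLN-primed 1 they numbered 2488, beside 1356 called lower, so the background share depends on the libraries kept.

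Replicate numbers are shared by the groups, but the number 2 libraries of the MLN-primed group deviated against those of the other groups (correlation of deviations -0.24 with both; 0.12 to 0.64 for the other 7 pairs), so not every library was most like its own number and the numbers are not taken as pairs. With the replicate number as a block, 1942 genes were higher and 1440 lower in the MLN-primed group against the spleen-primed one, and no call of a member changed in any comparison. The estimated depth limits Ccl3, Ccl4 and Ifng in naive libraries, where a few fragments decide the value.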
